A study of Apeltes quadracus with 21 samples.

Results

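The genes described here were expressed at higher levels in the last dorsal spine, the dorsal fin and the anal fin than in the more anterior dorsal spines of *Apeltes quadracus*, the fourspine stickleback. They were chosen by that pattern. A gene model outside the *Hox* clusters was taken when its lowest mean among the last spine (DSL), dorsal fin (DF) and anal fin (AF) reached 1 CPM and was at least 1.5 times its highest mean among the first, the second and the third spines (DS1, DS2 and DS3). The lower of the fin means also had to stay under 4 times the DSL mean, so that genes abundant in the fins alone were left out. CPM, the unit used throughout, is a counts-per-million value, the count relative to the total of its library. The rule found 66 of 31532 gene models. The blank pterygiophore (Pter) had no part in it.

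RNA-seq libraries were made from 7 tissues of each of 3 fry, which gave 21 libraries and n = 3 for each tissue. All 3 fry carried the L/L genotype at *HOXDB*, had 4 dorsal spines, descended from the Louisbourg population and were dissected at stage 31, when spines form in the fin fold. Spines were counted from the head, so DSL is the fourth spine of these fish. The replicate number stands for the fish, with replicates 1, 2 and 3 being fish 1, 3 and 8, so all 7 tissues of a replicate came from the same animal. There was no treatment and no second genotype among the libraries used. In dissected tissue, fewer cells of a type and less RNA per cell cannot be told apart.

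The dorsal spines of sticklebacks are stiff, unsegmented bony rays that form along the dorsal midline in front of the soft dorsal fin, and the last of them sits directly before that fin. Each spine or fin ray rests on a pterygiophore, a midline bone, and a blank pterygiophore carries no spine. *Hox* genes encode transcription factors that are used in nested domains along the head-to-tail axis and give repeated structures their identity, the higher-numbered groups acting towards the tail.

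Library totals lay between 26357373 and 34564481 counts. Of the gene models, 21134 passed the filter on low counts, and all 66 members were among them. Apart from 47 gene models named as *Hox* genes, the table gave an ID without a gene name. Functions of the members are therefore not given, and the muscle, skin, pigment, blood, nerve and immune markers that would check the dissections could not be looked up. Scaling by TMM, which corrects for a few abundant genes taking a large share of a library, gave factors of 0.773 to 0.797 in Pter, 0.861 to 1.19 in DS1 to DS3 and 1.07 to 1.17 in DSL, DF and AF. This scaling moved the median log2 ratio of the high to the low tissues over all tested gene models from 0.18 to -0.01, and that of the members from 1.39 to 1.18. Tests, fitted log2 differences and the position of Pter among the tissues were therefore taken on the TMM scale, while values given per library and as tissue means are CPM of the library total unless said otherwise. Unless another tool is named, adjusted p-values are from the quasi-likelihood test of edgeR, corrected over all tested gene models by the Benjamini-Hochberg procedure. Where gene models overlap, their counts are uncertain, because the sources used here do not say whether counting used the strand.

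Most members were of low abundance and cleared the rule by a modest margin. The ratio of the lowest high mean to the highest low mean ran from 1.51 to 4.76 with a median of 1.70, and 17 of the 66 had a ratio of 2 or more. The lowest high mean was under 5 CPM in 37 members, had a median of 4.63 CPM and reached 294.8 CPM at its highest. The median of the mean CPM over all 21 libraries was 4.27 for the members and 9.43 for the tested gene models, and the median summed exon length was 2294.5 bp against 2491.5 bp. All 9 libraries of DSL, DF and AF exceeded all 9 of DS1 to DS3 in 37 members. The same held for 0.517% of the tested gene models, but this is the contrast that chose the members, and nothing is read from it. The mean was highest in AF for 38 members, in DF for 20, in DSL for 7 and in Pter for 1.

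**Figure D1:**
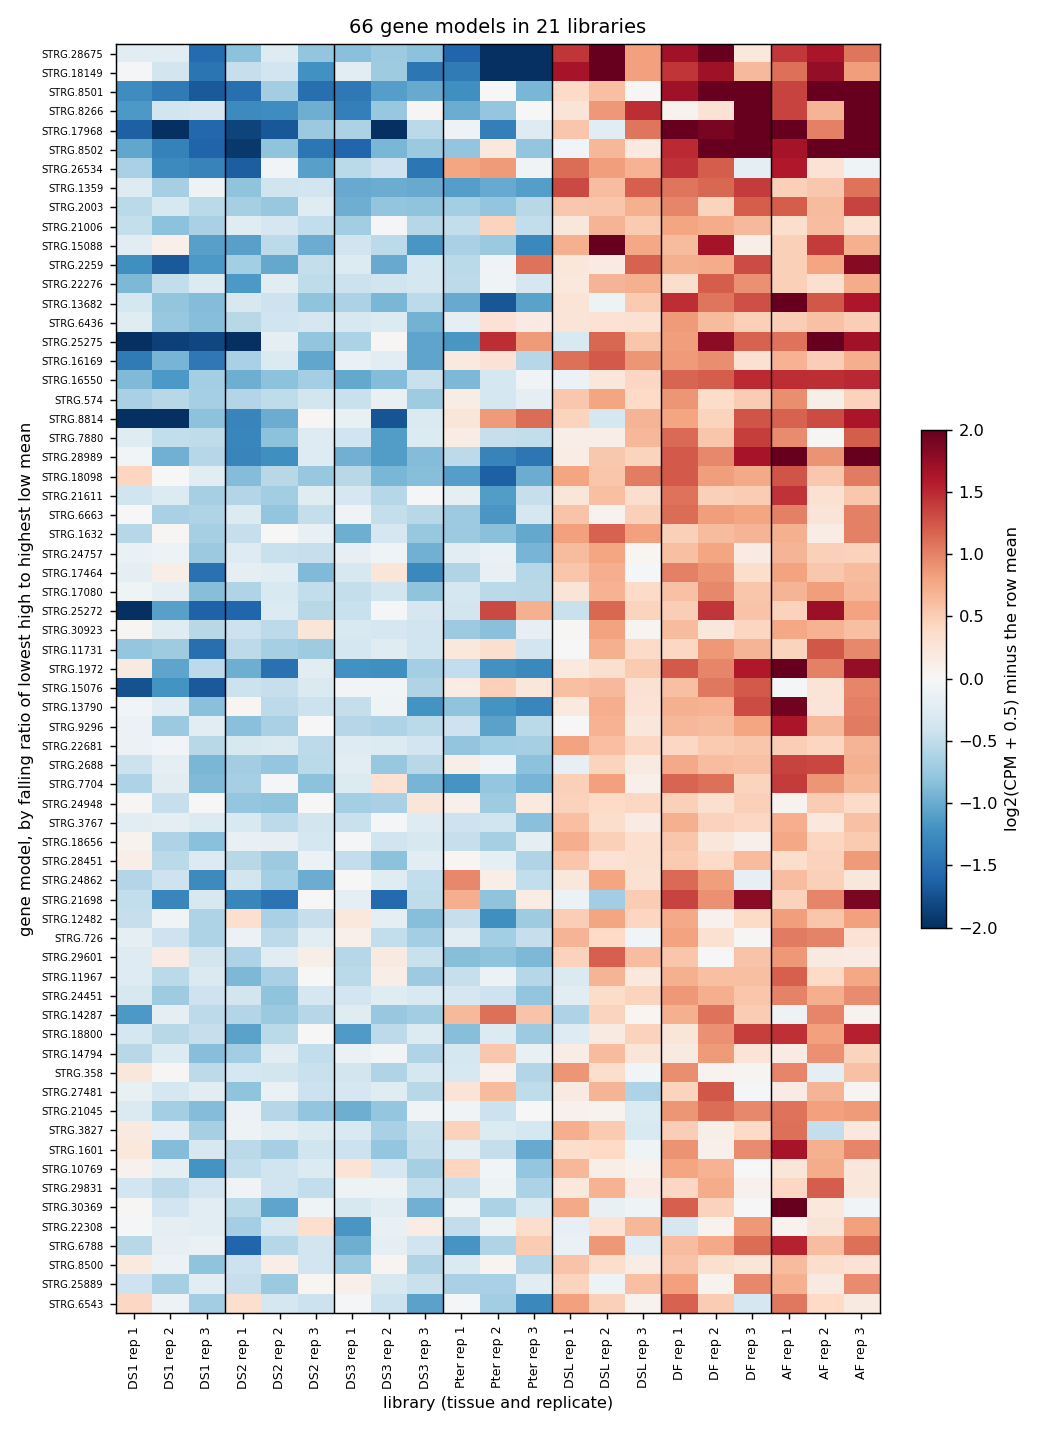
Log2(CPM + 0.5) of each of the 66 gene models minus its mean over the 21 libraries, with a row per gene model in order of falling ratio and a column per library, 3 replicates (fish) to a tissue; red is above and blue below the row mean. The difference between DS1 to DS3 and DSL, DF and AF follows from the rule, whereas the Pter columns were free to take any value and differ from row to row.

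The 8 members with the largest ratio are described first, all values being CPM in replicates 1, 2 and 3. STRG.28675, on an unplaced scaffold of the authors' *Apeltes* assembly (Un, 8364297 to 8365270), gave 1.98, 1.99 and 0.495 in DS1, 1.14, 1.91 and 1.18 in DS2 and 1.11, 1.26 and 1.13 in DS3. It gave 7.28, 11.9 and 4.59 in DSL, 8.74, 11.2 and 2.85 in DF and 7.18, 8.46 and 5.58 in AF, a ratio of 4.76. Every high library lay above every low one, replicate 3 had the lowest value in each of the high tissues, and Pter gave 0.461, 0.130 and 0.0706. These Pter values were below those of all 9 anterior spine libraries, but on TMM-scaled CPM replicate 1 of Pter, at 0.596, was above replicate 3 of DS1, at 0.541.

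STRG.18149, on chromosome 13 (18330315 to 18332579), had much the same profile with a ratio of 4.45. It read 1.91, 1.39 and 0.396 in DS1, 1.29, 1.39 and 0.561 in DS2 and 1.597, 0.997 and 0.398 in DS3. DSL gave 7.21, 9.88 and 3.82, DF 6.11, 7.44 and 3.34 and AF 4.77, 7.81 and 3.88. The groups did not overlap, and replicate 3 was the lowest in each of these 6 tissues. Pter again had the lowest mean, from values of 0.425, 0.0324 and 0.0706. STRG.18149 overlaps STRG.18150 on the opposite strand, so its count is uncertain.

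STRG.1359 on chromosome 2 (25955 to 33910), had a similar profile and was nearly silent in DS3 and Pter. Its values were 0.395, 0.178 and 0.495 in DS1, 0.1102, 0.313 and 0.325 in DS2 and 0.0347, 0.0369 and 0.0306 in DS3. They were 2.16, 1.14 and 1.96 in DSL, 1.74, 1.87 and 2.32 in DF and 0.984, 1.05 and 1.76 in AF, with a ratio of 3.56. The high and low groups did not overlap, and within the low group all 3 DS3 libraries lay below all 6 of DS1 and DS2. Each DS3 library held only 1 read, against 12, 6 and 15 in DS1 and 3, 9 and 11 in DS2.

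STRG.8501 and STRG.8502 are neighbours on chromosome 7 (1565365 to 1568945 and 1569266 to 1570113), and in both the fins stood well above DSL. STRG.8501 gave 0.626, 0.504 and 0.330 in DS1, 0.441, 1.15 and 0.443 in DS2 and 0.486, 0.738 and 0.827 in DS3. In DSL it gave 2.96, 3.55 and 2.22, in DF 8.15, 13.1 and 13.0 and in AF 6.34, 17.0 and 12.3. Its ratio was 4.26, and spines, last spine and fins formed 3 steps that did not overlap.

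STRG.8502 followed the same 3 steps. Its means were 0.435 ± 0.182 (SD, n = 3) in DS1, 0.433 ± 0.368 in DS2, 0.635 ± 0.318 in DS3, 2.37 ± 0.749 in DSL, 8.21 ± 1.92 in DF and 9.73 ± 2.46 in AF, and its ratio was 3.73. STRG.17968, on chromosome 13 (16257163 to 16263053), was the third of this kind, with 0.428, 0.119 and 0.462 in DS1, 0.294, 0.382 and 1.21 in DS2 and 1.35, 0.0738 and 1.47 in DS3. It then read 3.72, 1.99 and 5.53 in DSL, 16.7, 10.2 and 18.0 in DF and 18.6, 5.27 and 16.7 in AF. Here replicate 2 was the low animal in every tissue from DS3 to AF, and its AF value fell below the highest DSL value.

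STRG.8266, on chromosome 6 (16354281 to 16360673), had a ratio of 4.07 with a wide spread between fish. It gave 0.362, 0.979 and 1.02 in DS1, 0.294, 0.313 and 0.472 in DS2, 0.243, 0.628 and 1.44 in DS3, 1.78, 2.98 and 4.85 in DSL, 1.51, 1.84 and 7.80 in DF and 4.40, 2.58 and 7.76 in AF. Replicate 3 was the highest animal in each of these 6 tissues, and the lowest high library (1.51) was only just above the highest low library (1.44). On TMM-scaled CPM the order of these libraries was reversed. STRG.26534, on chromosome 20 (16667113 to 16668421), overlaps STRG.26533 on the same strand. Its means were 0.918 ± 0.404, 1.22 ± 0.987 and 1.27 ± 0.602 in DS1 to DS3 and 4.95 ± 0.843 in DSL, 5.30 ± 2.85 in DF and 4.60 ± 3.36 in AF. The DF value of replicate 3 (2.07) lay below the DS2 value of replicate 2 (2.33), so for this gene model the libraries overlapped.

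**Figure D2:**
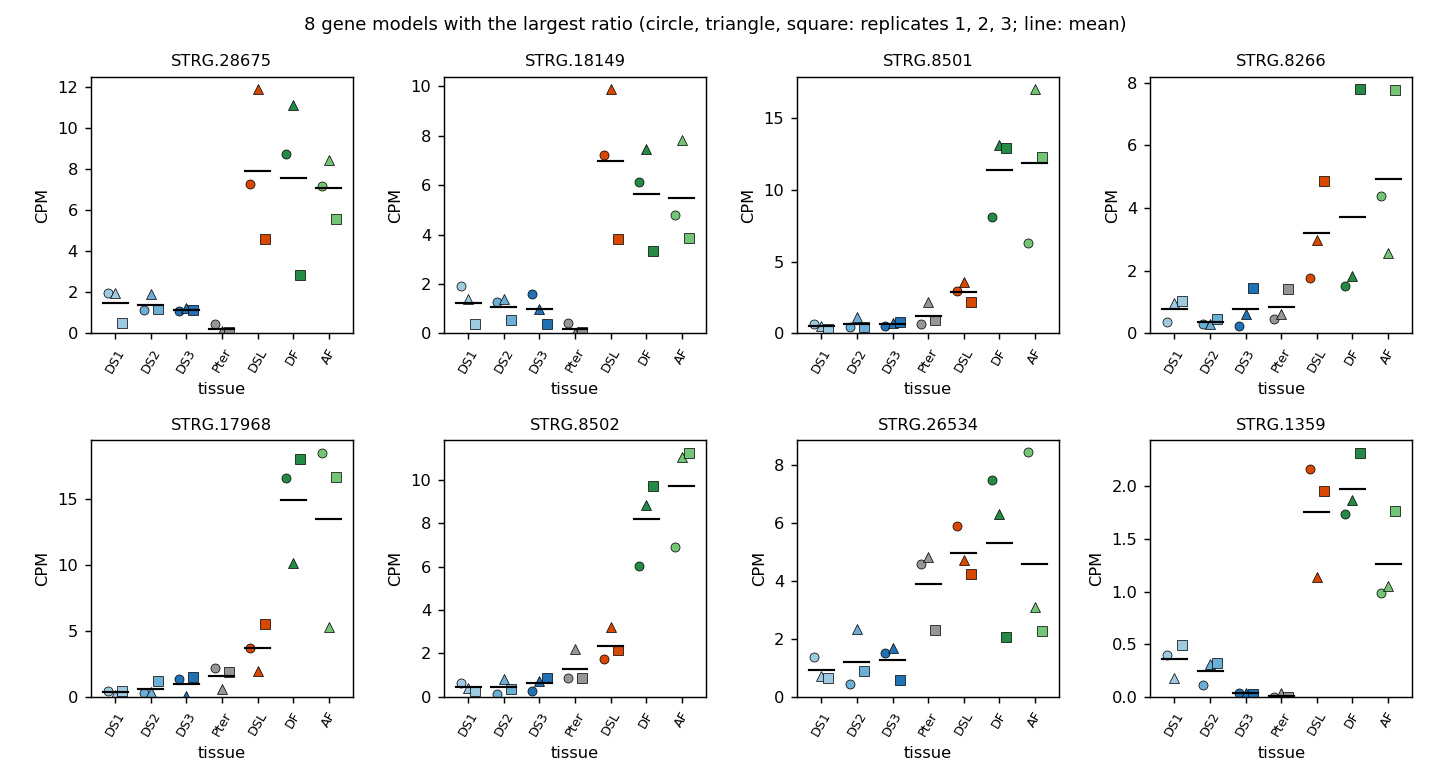
CPM of the 8 gene models with the largest ratio, a panel each, by tissue on the x axis; symbols are the 3 fish (circle, triangle and square for replicates 1, 2 and 3) and lines are means, and each y axis starts at 0. STRG.8501, STRG.8502 and STRG.17968 show DSL between the anterior spines and the fins, while STRG.28675, STRG.18149 and STRG.1359 reach their lowest mean in Pter.

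The most abundant members differed by smaller factors. STRG.574, on chromosome 1 (6954540 to 6988064), read 129.2, 137.1 and 127.2 in DS1, 134.2, 142.3 and 156.2 in DS2 and 147.4, 181.4 and 123.6 in DS3. DSL gave 293.2, 350.9 and 267.4, DF 371.4, 261.7 and 288.5 and AF 386.6, 219.2 and 278.5, so that the ratio was 1.96. No high library reached down to a low one on CPM of the library total. On TMM-scaled CPM replicate 2 of AF fell below replicate 2 of DS3.

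STRG.15088, on chromosome 11 (11615049 to 11646181), had means of 39.0 ± 14.9, 26.9 ± 5.92 and 30.8 ± 8.16 in DS1 to DS3 and 124.8 ± 73.4 in DSL, 94.9 ± 54.0 in DF and 92.5 ± 32.5 in AF. The spread in the high tissues came from replicate 2, which gave 209.5, 155.8 and 129.3 where the other fish gave 52.8 to 84.3. It overlaps STRG.15087 on the opposite strand. STRG.16169, on chromosome 12 (10642263 to 10653633), had 24.1 ± 5.07, 36.9 ± 9.61 and 43.0 ± 13.8 in DS1 to DS3 and 121.3 ± 14.2, 94.97 ± 20.7 and 89.8 ± 7.80 in DSL, DF and AF. Both were highest in DSL and lower in the fins. The groups of STRG.16169 did not overlap. Those of STRG.15088 were barely apart, at 52.78 CPM in DF of replicate 3 and 52.35 in DS1 of replicate 2. On TMM-scaled CPM these libraries of STRG.15088 stood in the reverse order.

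At the edge of the rule, the gene models inside and outside had nearly equal ratios. The members nearest the fold of 1.5 were STRG.6543 (chromosome 5, ratio 1.51), STRG.25889 (chromosome 20, 1.51) and STRG.8500 (chromosome 7, 1.51), whose lowest high means were 8.54, 6.95 and 7.41 CPM. The 3 gene models that just missed it were STRG.14564 (chromosome 11, 1.496), STRG.22323 (chromosome 17, 1.495) and STRG.8838 (chromosome 7, 1.49), whose DSL means were 1.13, 4.98 and 5.52 CPM. Only the threshold divides these 6. With the lower fold tried the rule found 392 gene models, and with a fold of 2 it found 17. On TMM-scaled CPM it found 33, all of them among the 66. STRG.15076, STRG.14287, STRG.25272 and STRG.8500 were among those lost, with TMM ratios of 1.36, 1.31, 1.42 and 1.33, while all the 8 strongest stayed, at 2.89 to 4.36.

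How well individual fish bore out the order was read by applying the rule to 2 fish and looking at the one left out. Each choice gave its own set, which shared 44, 42 and 54 gene models with the 66 for replicates 3, 2 and 1 left out. The percentages belong to those sets. The rule was set with earlier results of these data known, so no fish was wholly unseen. With replicate 3 left out, 61 gene models were chosen, and in that fish the lowest of DSL, DF and AF exceeded the highest of DS1 to DS3 in 46 of them (75.4%), against 32.6% of all tested gene models outside *Hox*. The difference was at least 1.5-fold in 32 (52.5%), against 1.3%. With replicate 2 left out, 45 of 59 (76.3%) kept the order in the fish not used, against 27.6%, and 26 (44.1%) by 1.5-fold or more, against 1.35%. Replicate 1 stood apart. The other fish chose 172 gene models, of which 75 (43.6%) kept the order in replicate 1, against 8.26%, and 24 (14.0%) by 1.5-fold, against 0.526%. In this fish DS1 had the highest TMM factor of all 21 libraries, 1.19, and its part in these counts was not tested. Within single fish, 54 of the 66 members kept the order in all 3 animals, 10 in 2 and 2 in 1. The choice of members used those values, and the same count over all tested gene models was not made, so nothing is read from it. The full rule was met within each of the 3 fish by 11 gene models: STRG.28675, STRG.18149, STRG.8266, STRG.2003, STRG.15088, STRG.22276, STRG.6436, STRG.16169, STRG.16550, STRG.8814 and STRG.6663. These are named as the outcome of that stricter setting.

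The fins and the last spine were high together but not to the same degree. Both fin means were within 1.5-fold of DSL in 41 members, both were at least 1.5 times DSL in 12, and in 13 the fins fell on different sides of that limit. STRG.8501 had a DF to DSL ratio of 3.92 and an AF to DSL ratio of 4.08. STRG.17968 had ratios of 3.99 and 3.61, and STRG.8502 had 3.47 and 4.11. These 3 lay close to the limit of 4 that the rule set on the lower fin, and 3 more gene models met the other conditions but lay past it. At the other end STRG.15088 had ratios of 0.761 and 0.742 and STRG.16169 had 0.783 and 0.741. These ratios describe tissues that the rule used and were not tested.

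**Figure D3:**
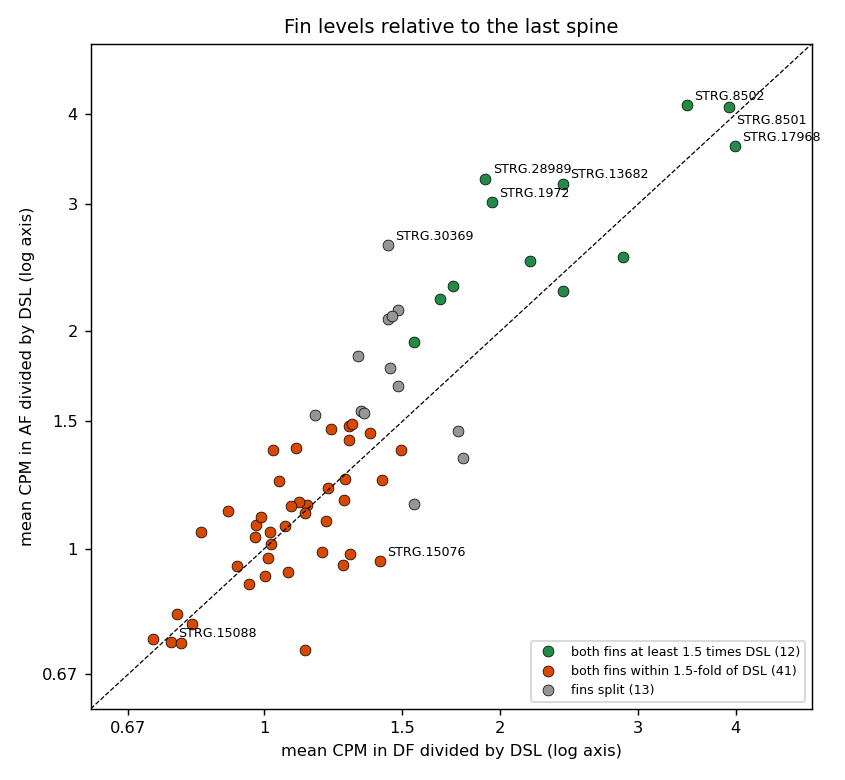
Mean CPM in DF (x axis) and AF (y axis) divided by mean CPM in DSL for the 66 gene models, both on log axes, coloured by whether the fins were within 1.5-fold of DSL; the dashed line marks equal fins. Of the 66, 41 sit in the block around 1, and STRG.8501, STRG.8502 and STRG.17968 lie near the limit of 4.

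The fins were also compared with each other. The rule asked both fin means to be high, which works against a fin difference among the members, so the counts below are a description of the set. In edgeR's quasi-likelihood test, 0 of the 66 differed between AF and DF at an adjusted p of 0.05, where 0.00946% of all tested gene models were higher and 0.208% lower in AF. At an unadjusted p under 0.05 there was 1 member against 337 tested gene models (1.595%), and DESeq2 and limma-voom also called 0. Members had a median log2 difference of 0.07 (AF minus DF) and all tested gene models 0.00, and the ratio of means ran from 0.641 to 1.83 with a median of 1.05. STRG.30369, at 3.71 ± 4.31 CPM in AF and 2.02 ± 1.08 in DF, shows how a single animal can make such a ratio: replicate 1 gave 8.68 in AF and the other fish gave 1.38 and 1.06. It was chosen for display after its values were seen.

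Among the low tissues, the rule limited only the highest mean, so differences between DS1, DS2 and DS3 could also be examined. That limit was not neutral between the spines. On CPM of the library total, the scale of the rule, means fell from DS1 to DS3 in 51.8% of the tested gene models outside *Hox*. The limit thus bore mostly on DS1, which shifts the members' difference of DS3 from DS1 upwards, and the counts below are a description of the set. The p-values of single members for this difference carry the same shift. On TMM-scaled CPM the means rose from DS1 through DS2 to DS3 in 28 members and fell in that order in 6, where 24.1% and 24.5% of the tested gene models outside *Hox* did so. On CPM of the library total, the scale that chose the members, 17 rose and 18 fell, where 9.69% and 51.8% did so. Rising members thus outnumbered falling ones on the TMM scale only. On CPM of the library total they were about equal in number, whereas falling was far more common than rising among the tested gene models. The members' median log2 difference (DS3 minus DS1) was 0.18 against -0.01 for all tested gene models. Only 1 member passed the test in edgeR with tissue as the only term, where 0.0615% of all tested gene models were higher in DS3 and 0.00946% lower.

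That member was STRG.15076, on chromosome 11 (11504071 to 11507709). It gave 0.823, 1.45 and 0.891 CPM in DS1, 2.79, 2.75 and 3.13 in DS2 and 3.78, 3.80 and 2.42 in DS3, then 6.22, 6.47 and 5.01 in DSL, 6.25, 8.75 and 9.87 in DF and 3.82, 4.90 and 8.29 in AF. All 3 DS1 libraries lay below all 6 of DS2 and DS3, and all 3 of DSL lay above all 3 of DS3. The log2 difference was 1.84 ± 0.301 (DS3 minus DS1, approximate SE, adjusted p = 0.0222, higher in 3 of 3 fish). The call held with fish as a term (adjusted p = 0.00141) and in DESeq2 (1.2e-05), and the log2 difference lay between 1.55 and 2.15 under all 16 other settings. It did not hold without any 1 of the 3 fish (adjusted p of 0.0837 to 0.900), without several single libraries, in limma-voom (0.127) or in a fit of DS1 and DS3 alone (0.682).

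With fish as a term, which sets aside the level of each animal, 8 members were higher in DS3 than in DS1 and 1 was lower, where 1.24% and 1.27% of all tested gene models were called. The upward shift from the rule's limit on the highest spine mean applies to these counts as well. The higher ones included STRG.25272 (log2 difference 1.67 ± 0.192, adjusted p = 7.71e-05 in edgeR with that term), STRG.25275 (1.97 ± 0.331, adjusted p = 0.00445) and STRG.16169 (0.99 ± 0.191, adjusted p = 0.0106). The lower one was STRG.1359 (-3.06 ± 0.683, adjusted p = 0.0257), from 1 read in each DS3 library and 12, 6 and 15 reads in DS1. For these 4, the direction was the same in 3 of 3 fish, and with tissue alone their adjusted p-values were 0.495, 0.504, 0.402 and 0.139.

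In the blank pterygiophore the members did not behave alike. It was not used by the rule, but the spines it is compared with were, which shifts the difference from DS1 to DS3 upwards and the difference from DSL downwards. The counts of calls are therefore a description of the set, and the p-values of single members carry the same shifts. On TMM-scaled means, Pter lay below all of DS1 to DS3 in 12 members, within their range in 11, between the low and the high tissues in 25 and within or above the high tissues in 18. On CPM of the library total those numbers were 25, 11, 24 and 6, since the scaling raised all Pter values. The rule itself kept the low and high tissues apart, and these positions were not counted over all tested gene models.

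Compared with DS1 to DS3, Pter was higher in 18 members and lower in 4 in edgeR with tissue alone, where 3.25% and 5.98% of all tested gene models were called higher and lower. The members' median log2 difference was 0.37 against 0.00. With fish as a term, 24 were higher and 5 lower, against 13.1% and 15.4%, and the 22 calls all held. DESeq2 called 21 higher and 3 lower and limma-voom 15 and 0. Without fish replicate 1 the number of calls went from 22 to 9, without replicate 2 to 6 and without the Pter library of replicate 2 alone to 10. Calls over all tested gene models went from 1950 to 545, 376 and 747 in the same fits.

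Among those higher in Pter were STRG.25275, STRG.8814 and STRG.26534, the members with the largest differences. STRG.25275, on chromosome 19 (16265638 to 16269422), gave 8.15, 53.7 and 34.6 CPM in Pter, 2.24, 4.81 and 4.98 in DS1, 3.78, 16.4 and 10.7 in DS2, 12.0, 19.3 and 8.82 in DS3 and 15.3, 42.4 and 28.1 in DSL. The fins were higher still, at 34.1, 66.5 and 43.2 in DF and 40.7, 87.9 and 61.3 in AF. Replicate 1 was the lowest animal in Pter, DSL, DF and AF, and its Pter value fell among the anterior spine values. The log2 difference from DS1 to DS3 was 2.24 ± 0.457 (adjusted p = 0.00446, higher in 3 of 3 fish), but adjusted p was 0.0900 without the Pter library of replicate 2, 0.0760 without that fish and 0.0702 without replicate 3.

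STRG.8814, on chromosome 7 (6360157 to 6362466), gave 11.3, 17.6 and 21.3 CPM in Pter against 2.88 ± 2.01, 5.87 ± 3.27 and 6.24 ± 3.26 in DS1 to DS3, and 12.0 ± 4.18 in DSL, 17.7 ± 5.23 in DF and 25.6 ± 4.38 in AF. All 3 Pter values exceeded the 9 anterior spine values, which reached 9.60 at most. The difference was 2.12 ± 0.360 on the log2 scale (adjusted p = 0.00101, 3 of 3 fish; 0.0513 without replicate 2), and it overlaps STRG.8813 on the opposite strand. STRG.26534 gave 4.57, 4.83 and 2.30 in Pter, with a log2 difference of 2.10 ± 0.461 (adjusted p = 0.00752, 3 of 3 fish). Its adjusted p was 0.0945 without replicate 1, 0.0731 without replicate 2 and 0.0581 without the Pter library of replicate 2.

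The members lower in Pter than in DS1 to DS3 were STRG.1359, STRG.18149, STRG.28675 and STRG.18098. The first of them had a log2 difference of -3.07 ± 0.809 (adjusted p = 0.0234), STRG.18149 had -2.31 ± 0.692 (adjusted p = 0.0437) and STRG.28675 had -2.29 ± 0.597 (adjusted p = 0.0220), each lower in 3 of 3 fish. These calls were lost under 7 of 21, 12 of 22 and 5 of 22 other settings, with adjusted p-values of up to 0.184, 0.392 and 0.270. Leaving out replicate 1 or replicate 2 ended all 3 calls. With fish as a term they held, at adjusted p-values of 0.0206, 0.000601 and 0.000431. The fourth, STRG.18098, had -1.02 ± 0.309 (adjusted p = 0.0474, 3 of 3 fish). Its means were 1.69 CPM in DS1 but 0.746 in DS2 and 0.712 in DS3. On TMM-scaled CPM replicate 3 of Pter, at 0.665, was above replicate 1 of DS2, at 0.614.

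Against DSL the same gene models were also lower in Pter. The rule asked for a high DSL mean, which shifts this difference downwards, so the counts below are a description of the set. The p-values of single members carry the same shift. In edgeR with tissue alone, Pter was lower than DSL in 11 members and higher in 1, where 6.08% and 3.67% of all tested gene models were called. With fish as a term, 23 were lower and 3 higher, against 14.4% and 12.3%. The members' median log2 difference (Pter minus DSL) was -0.45, against -0.01 for all tested gene models. Without replicate 1 or replicate 2 the number of calls went from 12 to 6, while calls over all tested gene models went from 2059 to 942 and 320.

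STRG.1359 had 1 read in the 3 Pter libraries together and 150 in the 3 DSL libraries, a ratio of 110.0 on TMM-scaled totals, with a 95% interval of 19.4 to 4372 for counting error only. Its fitted log2 difference of -6.44 ± 0.717 (adjusted p = 1.9e-05) rests on that single read. STRG.28675 had 19 reads in Pter and 670 in DSL, 25.9 times as many on the same totals (16.4 to 43.2), with a log2 difference of -4.68 ± 0.661 (adjusted p = 0.000199). STRG.18149 had 15 and 587 reads, 28.7 times as many (17.3 to 51.6), with -4.82 ± 0.764 (adjusted p = 0.000597; 0.0753 without replicate 2). Each of the 3 was lower in 3 of 3 fish, and for STRG.1359 and STRG.28675 the call held under all 16 other settings. Those settings reuse the DSL libraries that helped to choose the members, so they are not independent support. STRG.18098, on chromosome 13 (17893024 to 17898023), completes the set of 4 that were lower in Pter than in the spines on both sides of the rule. It gave 0.461, 0.162 and 0.530 CPM in Pter and 3.04, 2.52 and 3.66 in DSL, a log2 difference of -2.52 ± 0.356 (adjusted p = 0.000196, 3 of 3 fish).

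The 1 member higher in Pter than in DSL was STRG.14287, on chromosome 11 (1898003 to 1904300). It gave 6.59, 9.27 and 6.21 CPM in Pter and 2.47, 5.69 and 4.14 in DSL, and its anterior spine values ran from 1.55 to 3.50. Every Pter value exceeded every spine value, DSL included, and its mean of 7.36 ± 1.66 was the highest of all 7 tissues, next to 7.34 ± 1.64 in DF. The log2 difference from DSL was 1.32 ± 0.366 (adjusted p = 0.0286, 3 of 3 fish), and the call was lost under 6 of 16 other settings, among them the removal of any 1 fish, with adjusted p-values of up to 0.132. It overlaps STRG.14285 on the opposite strand, and it was not a member on TMM-scaled CPM, the scale of the test.

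**Figure D4:**
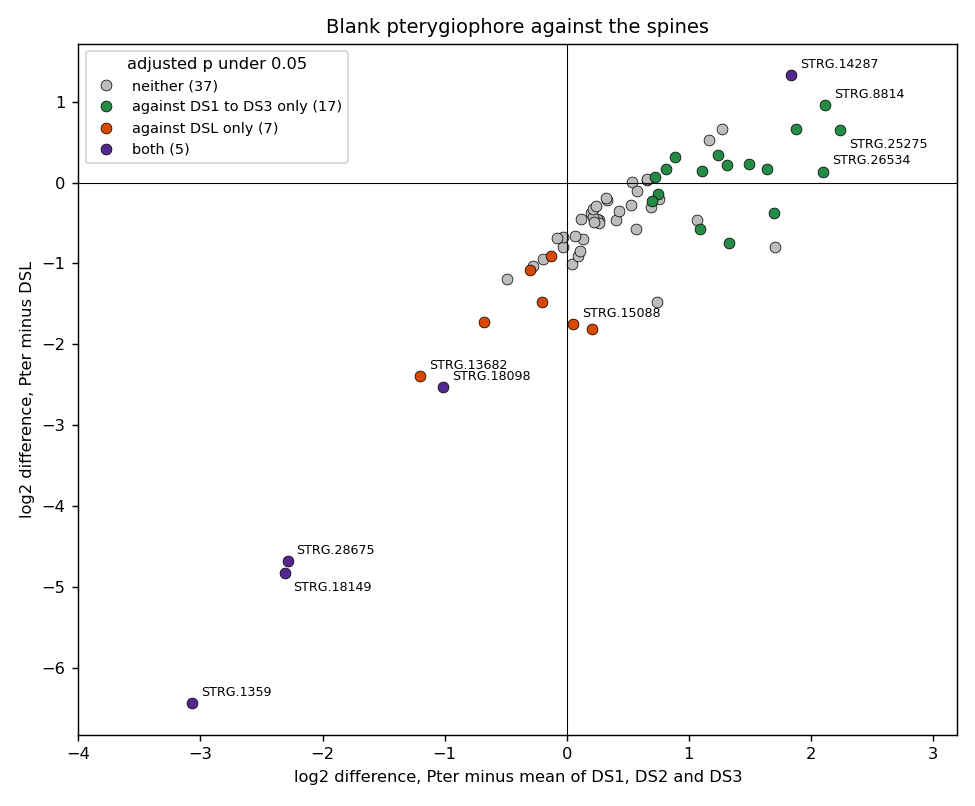
Log2 difference of Pter from the mean of DS1, DS2 and DS3 (x axis) and from DSL (y axis) for the 66 gene models, from edgeR on TMM-scaled counts, coloured by which difference had an adjusted p under 0.05. Of the 5 gene models called on both axes, 4 lie at the lower left and STRG.14287 at the upper right, and 37 were called on neither; the axes share the Pter libraries, so the slope of the cloud is not a result.

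Members were spread over the genome, with a few close neighbours. The authors placed the *Apeltes* contigs by alignment to the genome of *Gasterosteus*, another stickleback, so chromosome numbers and distances across contigs rest on that order. They lay on 18 of the 21 numbered chromosomes and on unplaced scaffolds, with 6 on chromosome 19 and 0 on chromosomes 4, 15 and 18, and 7 of the 66 (10.6%) were on unplaced scaffolds against 9.81% of the tested gene models. Within 50 kb of each other were STRG.8501 and STRG.8502, which are 320 bp apart on the same strand, STRG.8500, which lies 1247 bp from STRG.8501 on the other strand, and the pair STRG.25272 and STRG.25275, which are 21768 bp apart on the same strand of chromosome 19.

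To see whether such neighbours shared more than the tissue pattern, the tissue means were removed from log2(CPM + 0.5) and the remaining variation was correlated over the 21 libraries, which share 3 fish. Over all 2145 pairs of members the median r was 0.068 and the 95th percentile 0.637. STRG.25272 and STRG.25275 had r = 0.927, STRG.8501 and STRG.8502 had r = 0.862, and STRG.8500 had r = 0.309 with STRG.8501. The highest value, 0.934, belonged to STRG.28989 on an unplaced scaffold (Un, 10785292 to 10786942) and STRG.1972 on chromosome 2 (3162550 to 3164234). These gave 96.5, 26.8 and 59.3 CPM and 55.8, 18.7 and 32.1 CPM in AF, with replicate 1 highest and replicate 2 lowest in both. Whether they share sequence, and so reads, was not tested. STRG.28675 and STRG.18149, alike in their low Pter level, had r = 0.815. STRG.1359, also low in Pter, had r = -0.561 and -0.527 with them, from few reads. These last 3 pairs were chosen after the values were seen.

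The gene models that flank the chromosome 7 trio did not meet the rule, but some had higher means in the fins than in the anterior spines. Of 12 tested gene models within 60 kb, 3 were members. The next one after STRG.8502, STRG.8503, had means of 5.90, 6.58 and 5.92 CPM in DS1 to DS3 and 6.52, 6.28 and 5.75 in DSL, DF and AF. STRG.8499, before the trio, had 9.80, 9.55 and 7.43 in DS1 to DS3 and 10.2, 12.0 and 13.1 in DSL, DF and AF. On the same side, STRG.8498 had 31.99, 22.61 and 19.76 in DS1 to DS3, 30.12 in DSL, 53.49 in DF and 47.19 in AF. STRG.8497 had 14.72, 12.23 and 10.72 in DS1 to DS3, 13.99 in DSL, 20.98 in DF and 18.45 in AF. In both, the fin means exceeded every anterior spine mean, but the DSL mean lay below that of DS1. Further along, STRG.8506 ran the other way, from 21.8, 13.3 and 5.38 CPM in DS1 to DS3 to 0.718 in DSL, 0.939 in DF and 0.491 in AF. STRG.8497, STRG.8498, STRG.8503, STRG.8499 and STRG.8506 were picked as neighbours after their values were seen.

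On chromosome 19, STRG.25272 and STRG.25275 were the 2 members among 14 tested gene models. Between them, STRG.25273 was level, at 8.13 CPM in DS3 and 8.23 CPM in DSL. STRG.25274, also between them, had 2.55 CPM in DS3, 1.68 in Pter, 3.42 in DSL, 2.13 in DF and 2.27 in AF. STRG.25272 (16240235 to 16243869) read 5.37, 13.6 and 9.27 in DS1, 9.47, 24.2 and 19.8 in DS2, 21.4, 28.8 and 23.3 in DS3, 22.6, 74.1 and 48.6 in Pter and 21.4, 65.7 and 40.4 in DSL. Replicate 1 was the lowest of the 3 fish in each of these 5 tissues, which is the animal that was also lowest for STRG.25275 in Pter, DSL and both fins.

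**Figure D5:**
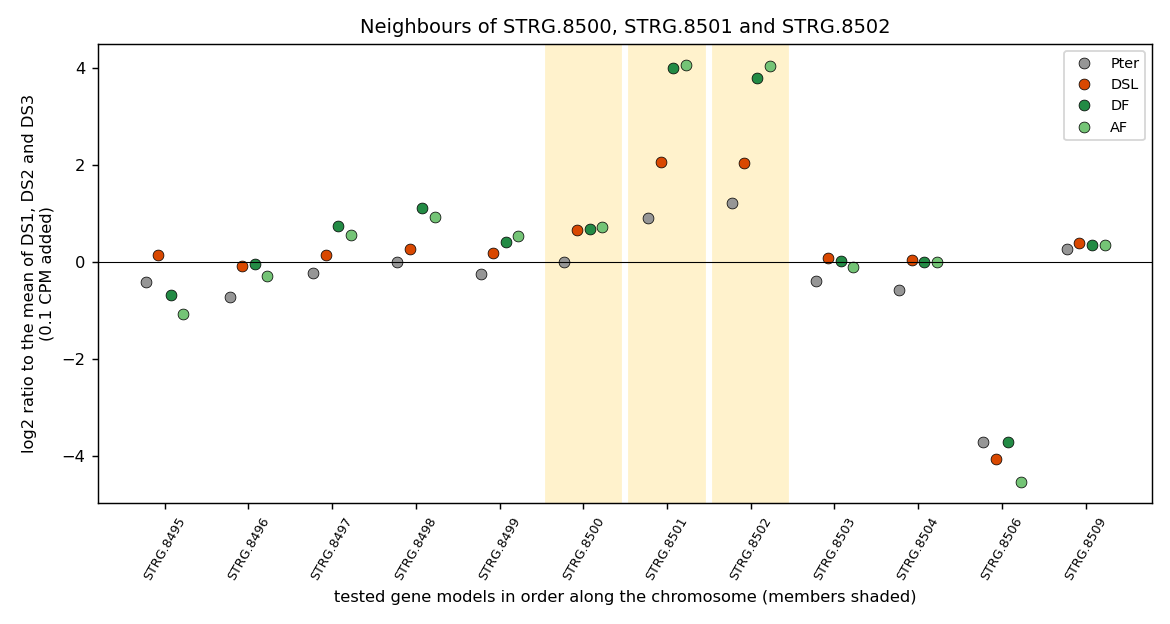
Mean CPM in Pter, DSL, DF and AF relative to the mean of DS1, DS2 and DS3 (log2, 0.1 CPM added) for the 12 tested gene models around STRG.8500, STRG.8501 and STRG.8502, in their order along chromosome 7 and not to scale; the members are shaded. STRG.8501 and STRG.8502 rise above the line while STRG.8503 and STRG.8504 beside them stay near it, and STRG.8506 lies far below it. The fins of STRG.8497 and STRG.8498 also lie above the line.

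Of the members, 8 (12.1%) lay within 1 Mb of a *Hox* gene model, as did 782 (3.71%) of the tested gene models outside *Hox*. These distances partly follow the *Gasterosteus* order of the contigs, and which of them lie within a single *Apeltes* contig was not checked. The nearest was STRG.21006 on chromosome 16 (9097473 to 9102163), which overlaps *HOXD9A* and *HOXD10A* on the opposite strand, so its reads cannot be told apart from theirs without the strand setting. It had 0.268 ± 0.0923, 0.440 ± 0.0805 and 0.405 ± 0.227 CPM in DS1 to DS3 and 1.18 ± 0.257, 1.49 ± 0.0937 and 1.12 ± 0.192 in DSL, DF and AF. STRG.25889 was 189 kb from *HOXA13B* and STRG.6543 was 252 kb from *HOXB6B*, both being members at the edge of the fold. STRG.8266 was 309 kb from *HOXD4B* and STRG.16169 was 328 kb from *HOXC3A*.

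The *Hox* genes were kept out of the membership, but 7 of the 47 met the same numerical conditions. They were *HOXC11A*, *HOXC10A*, *HOXD10A*, *HOXD11A*, *HOXA11B*, *HOXA10B* and *HOXA9B*, all from the posterior groups, and all 7 also met the conditions on TMM-scaled CPM. *HOXC11A* had 0 reads in DS1 and DS2, 0.0116 ± 0.0200 CPM in DS3, 1.15 ± 0.658 in Pter, 10.7 ± 2.06 in DSL, 42.2 ± 3.57 in DF and 52.6 ± 13.2 in AF. *HOXC10A* had 0.611 ± 0.538 in DS1, 1.85 ± 1.09 in DS2, 4.13 ± 1.72 in DS3 and 20.3 ± 5.49 in DSL, and stood at 18.5 ± 3.97 in DF and 17.8 ± 2.23 in AF.

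The other 5 *Hox* genes also had higher means in DS3 than in DS1, for example *HOXD11A* at 0.0527 ± 0.0497 in DS1, 0.778 ± 0.104 in DS3 and 8.82 ± 2.07 in DSL. In each fish left out of the choice, all the *Hox* gene models chosen on the other fish kept the order (6 of 6, 7 of 7 and 6 of 6 for replicates 1, 2 and 3). In the same fish 8.26%, 27.6% and 32.6% of all tested gene models outside *Hox* had that order. The *Hox* gene models that were not chosen were not counted in this way. In *HOXC11A* and *HOXC10A* the Pter means of 1.15 and 9.63 CPM lay between DS3 and DSL, as they did on TMM-scaled CPM. On that scale Pter lay between the low and the high tissues in the other *Hox* genes too, except *HOXA10B*, where it was within or above the high tissues. On CPM of the library total, *HOXD10A* had 5.39 in Pter and 5.47 in DS3. Among the members Pter lay between in 25 of 66 on TMM-scaled means and in 24 on CPM of the library total. On the latter scale 25 lay below all of DS1 to DS3. The rule itself kept the low and high tissues apart, so no likeness to the *Hox* genes is read from these counts. STRG.28675, STRG.18149 and STRG.1359, where Pter had the lowest mean of all tissues, are members picked for their low Pter level.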

How the data were processed

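The deposited values are counts of reads for each gene model, whole numbers that the authors did not normalize, in 106 sample columns. The 21 columns of the L/L fish were used, and the other 85 were not. The authors trimmed reads with cutadapt 2.4 (Trim Galore), checked them with FastQC 0.11.9, mapped with STAR and counted with featureCounts of Subread 2.0.1, per the submitters' processing notes. Gene models came from StringTie on the authors' assembly of a fish with 4 spines, and *Hox* names from BLAST. The libraries were stranded. Coordinates are those of that assembly. Its contigs were ordered and oriented along the *Gasterosteus* genome, with a similar chromosome structure assumed by the authors. No sequences are shown.

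Members were chosen on CPM of the library total. Tests used edgeR 4.0.16 in R 4.3.3 (filterByExpr, TMM, quasi-likelihood F test, two-sided, tissue as the only term, all 21 libraries, threshold 0.05). The filter set aside 0.0403% of counts. SEs are the log2 difference divided by the square root of F. The methods of the study name DESeq2. The members, lists and tests were chosen with earlier results of these data known. Gene models were named by rule: the 8 largest ratios, the 3 highest levels, up to 3 called per test and direction, the 3 nearest the fold on each side, members within 50 kb of one another, the 3 nearest a *Hox* gene model within 1 Mb, and every *Hox* gene model meeting the numerical conditions. Others are said to be chosen after their values were seen, or appear as results of a count.

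The replicate numbers pair the samples, since each is 1 fish. Residuals after removing tissue means correlated between tissues of the same fish at 0.52 or more (median 0.62, 63 pairs). Replicates were not duplicates (chi-square per degree of freedom 26.3 to 302). Alternatives were RLE factors, DESeq2 1.42.0, limma-voom (limma 3.58.1), 2 other filters, fish as a term, the compared tissues alone, leaving out fish or libraries, and other limits in the rule. With a library left out, the spread was pooled over all tissues. All alternative fits but that with fish as a term kept tissue as the only term. Leaving out a fish or library was therefore not tried with the fish term. Pooled read ratios have exact 95% intervals for counting error only. The procedure was tested on simulated data that held no effect of fish, so that test does not cover the sharing of animals between libraries.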

Additional observations from a re-analysis of the deposited data

How the results depend on the processing

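The number of members came from the rule without any test, and it changed with the scale, the limits and the fish used. It went from 66 to 33 on TMM-scaled CPM, to 17 with a fold of 2, to 392 with a lower fold, to 29 with a level of 5 CPM, to 11 when the rule had to hold within each fish, and ranged from 59 to 172 when a replicate was left out. Leaving out replicate 1 gave 172, of which 54 were among the 66, and leaving out replicates 2 and 3 kept 42 and 44 of them. For DS3 against DS1, the 1 member called became 9 with fish as a term (the replicate block), 0 in limma-voom, 0 in a fit of the compared tissues alone, 0 among members by TMM-scaled CPM, and 0 to 1 with a fish or library left out. For AF against DF it was 0 under every setting run, the block included. Against DS1 to DS3, the 22 calls for Pter among 66 members became 29 with the replicate block, were 14 among the 33 members by TMM-scaled CPM, and were 6 to 20 with a fish or library left out. Against DSL, the 12 calls became 26 with the replicate block and 6 to 13 with a fish or library left out. Among the 33 members by TMM-scaled CPM there were 8 calls against DSL, with Pter higher in 0 and lower in 8. In the fish left out, requiring 1.5-fold instead of the order alone lowered the counts from 75 to 24 for replicate 1 and from 45 to 26 for replicate 2, and from 46 to 32 for replicate 3. The 11 differences of single gene models that were recomputed kept their direction under each setting run, and the cause of the calls lost was not tested. All members rest on 3 fish, and 37 of 66 were under 5 CPM in their lowest high tissue. Within single fish, the fold of 1.5 was reached in all 3 animals by 16 members, in 2 by 22, in 1 by 22 and in 0 by 6. The choice of members used these values, and the same count over all tested gene models was not made, so nothing is read from them.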
